A study of Mus musculus with 4 samples.

Results

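The genes described here are targets of the transcription factor ATF4 together with the enzymes of serine synthesis and of folate-bound carbon transfer. They were taken from a list of 30 gene symbols, of which 29 had a feature on the array, among 19505 gene symbols in all. A feature is a set of probes whose signals the authors summarised to 1 value. The absent symbol was Pycr1, and the brightest feature was used where a gene had several. The samples were mouse CD8+ T cells of C57/BL6 mice, isolated from lymph nodes and spleens and stimulated for 3 days with beads that carry antibodies to CD3 and CD28 in medium with IL-2. The 2 control cultures were left untreated and the 2 spermidine cultures received 25 µM of this polyamine in the medium, so all 4 were activated and supplied with IL-2. Total RNA (250 ng per sample) was hybridised to Clariom S Mouse arrays, 1 array per sample, which carry 22206 gene features. The labels term the replicates biological but name no animal or culture of origin; p-values then cover only the variation among these 4 samples, which may be technical.

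ATF4 is the main transcriptional output of the integrated stress response. When one of the kinases that sense amino acid shortage, unfolded protein in the endoplasmic reticulum, heme shortage or double-stranded RNA phosphorylates the initiation factor eIF2alpha, most translation slows while that of Atf4 mRNA increases, and ATF4 then activates genes for amino acid synthesis and uptake together with regulators that adjust or end the response. Control of ATF4 is thus largely translational, and an mRNA array does not measure the protein. Activated T cells are known to induce serine synthesis and mitochondrial one-carbon enzymes, which supply carbon units for nucleotide synthesis during proliferation.

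ATF4 binds composite sites that combine half-sites of the C/EBP and ATF families, written here as TGATGNAA on either strand. RefSeq promoter windows of assembly GRCm38.p6, from 250 bases before to 50 bases after a start site, were available for 28 of the 30 genes (Cth and Aldh1l2 had none). A match stood in 8 of these 28 genes (28.6%) and in 4.51% of all 27025 genes with a window. Since the list was drawn up from ATF4 targets and linked enzymes, the higher share can follow from that choice. It was found in 3 of 15 synthesis genes and 5 of 13 stress regulators and effectors. Stretches around the match are shown for 6 measured genes so that the positions can be read beside the array values given further on. Each is written 5′ to 3′ on the strand of the gene, with the match in capitals, and lies wholly before the start site.
Asns (chr6:7693210-7693262, minus strand): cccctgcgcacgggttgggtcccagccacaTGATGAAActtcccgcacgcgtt
Chac1 (chr2:119351019-119351086, plus strand): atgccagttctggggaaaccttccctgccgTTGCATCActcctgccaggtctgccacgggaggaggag
Nupr1 (chr7:126625543-126625610, minus strand): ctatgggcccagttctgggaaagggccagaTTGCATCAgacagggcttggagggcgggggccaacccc
Vldlr (chr19:27216790-27216857, plus strand): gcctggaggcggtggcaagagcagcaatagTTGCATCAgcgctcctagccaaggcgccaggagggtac
Pck2 (chr14:55540133-55540200, plus strand): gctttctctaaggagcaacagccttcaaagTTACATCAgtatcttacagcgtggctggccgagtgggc
Fgf21 (chr7:45615592-45615659, minus strand): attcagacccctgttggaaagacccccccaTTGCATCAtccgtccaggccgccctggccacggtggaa
The match began 23 bases before the start site in Asns, 103 in Pck2, 110 in Nupr1, 139 in Fgf21, 193 in Chac1 and 200 in the second of the Vldlr windows. It read in the direction of transcription in Asns and against it in the other 5. Trib3 held its match after the start site and Pycr1, which had no array value, 103 bases before it.

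Across the arrays, 23 of the 29 measured genes had a lower mean log2 signal with spermidine and 6 a higher one. Of all 22206 gene features 11305 were lower, the share to set beside each later count of lower genes. The median difference, spermidine minus control, was -0.52 on the log2 scale, against -0.007 over all gene features. The genes were chosen with earlier results of these data known, so the medians and counts describe the list and do not test it. The 16 measured genes of amino acid and one-carbon synthesis had a median of -0.55, with 14 lower, and the 13 stress regulators and effectors a median of -0.38, with 9 lower. In 15 genes both spermidine arrays lay below both control arrays, which was so for 18.4% of all features. In 3 genes both lay above, against 18.3% of all features. Of the 15, the separation was at most 0.05 in 4 genes (Mthfd1l, Pck2, Atf4 and Atf5).

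None of these differences passed the test. By limma with Benjamini-Hochberg adjustment over all 22206 features, 0 features (0%) were called higher and 0 (0%) lower at an adjusted p of 0.05, and the lowest adjusted p among the 29 genes was 0.637. At an unadjusted p under 0.05 there were 8 of the 29 genes, all lower, beside 7.02% of all features. These were Asns, Cth, Psat1, Shmt2, Nupr1, Chac1, Stc2 and Vldlr. The smallest p that exact permutation of 4 arrays into groups of 2 allows is 0.333, and that test was not applied.

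Background level means here the 95th percentile of the array's 23 background features, made of probes without a target in the genome, averaged over the arrays: a log2 signal of 6.35. Below that level a signal may be mostly unspecific, and its differences do not measure a fold. Group means of 5 genes lay below it in both groups, those of Aldh1l2, Cbs, Cebpb, Ppp1r15a and Fgf21. Without them the median differences were -0.55 for the synthesis genes and -0.56 for the stress regulators and effectors. These values do not set the groups of genes apart. In 14 of the remaining 24 genes both spermidine arrays lay below both control arrays, beside 2134 of the 9397 features that reached this level in a group. In 1 gene both lay above, beside 1831 of those features. Such a filter can keep a gene through its higher group alone, as it kept Chac1, whose spermidine mean was 6.26. Levels of different genes come from different probes and are not set against each other.

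**Figure D1:**
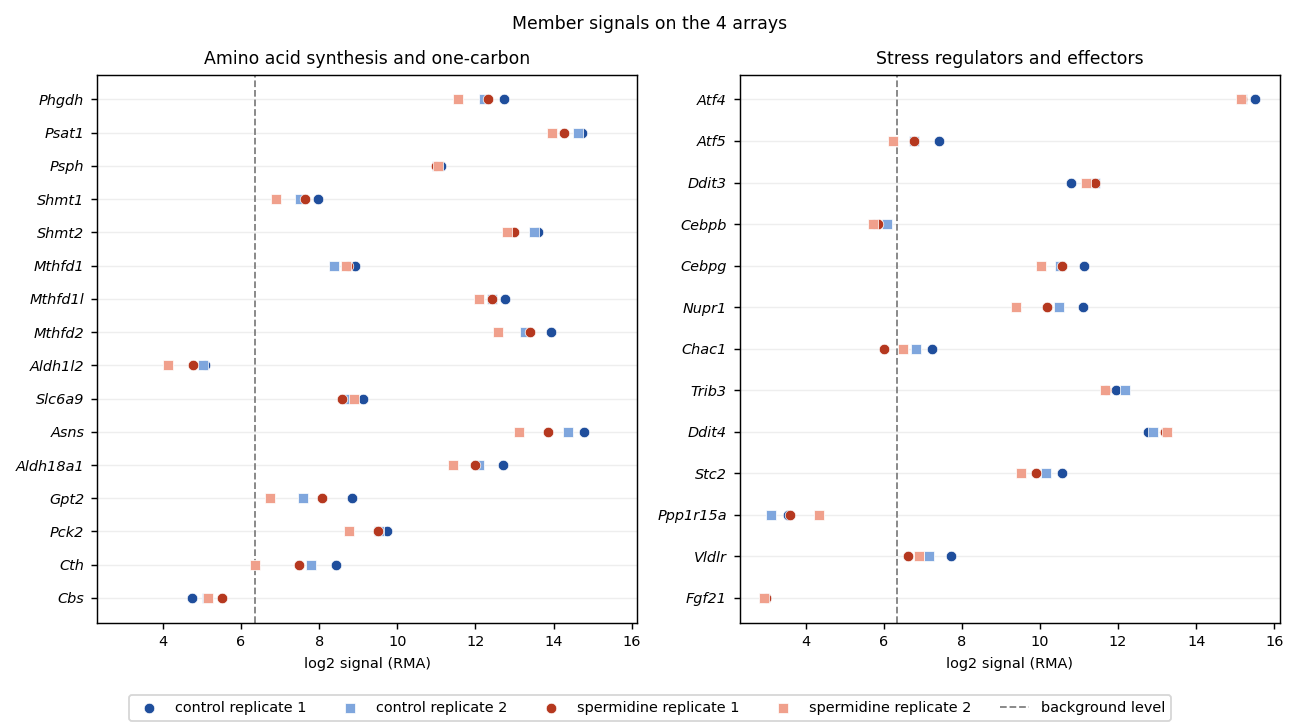
Log2 signal (horizontal axis) of the 29 measured genes on each of the 4 arrays; circles are replicate 1, squares replicate 2, blue control, red spermidine, and the dashed line is the background level of 6.35. In most rows the 2 red symbols lie to the left of the blue ones or overlap them, and Ddit4 is the row above background with both red symbols to the right.

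The arrays were similar as a whole, with medians between 5.13 and 5.25 and pairwise correlations across features from 0.989 to 0.994; their number limits the precision. CD8+ T cell markers matched the label: 11 of 12 were measured, all 11 stood above background in both groups, and Cd8a lay between 16.57 and 16.68. B cell markers had higher means with spermidine in all 8 measured of 9, but 0 passed the adjusted test (lowest limma adjusted p = 0.623). In 4 of the 8 (Ms4a1, Cd22, Blnk and Pax5) both group means lay below background. The summed signal of the list (log2 of the sum) was 9.08 and 9.26 in control and 9.84 and 9.93 in spermidine arrays. Among them Jchain, which joins immunoglobulin chains, stood at 6.09 and 5.56 against 7.47 and 8.03, from below to above background, and Cd79a at 6.44 and 6.50 against 7.40 and 7.15. Cd79b ran from 7.67 to 8.29, and Ms4a1 stayed below background on every array. Of 9 measured macrophage and monocyte markers and 6 dendritic cell markers, 0 reached background in either group. Natural killer markers reached it in 2 of 4 measured genes, with Ncr1 below it on every array and Eomes between 11.82 and 13.57. Erythroid and platelet markers reached it in 1 of 4, and CD4 and regulatory T cell markers in 3 of 4. In the CD4 and regulatory list 2 genes were higher and 2 lower. Its Cd4 lay between 6.59 and 7.24 and its Ikzf2 between 11.92 and 12.71. Zbtb7b stood at 6.32 and 6.88 in control and 7.32 and 7.41 in spermidine arrays. In bulk RNA, fewer cells of a type and less RNA per cell cannot be told apart. Mitosis genes, a list chosen with earlier results of these arrays known, were lower in 19 of 19 measured genes of 20, with a median difference of -1.13, Cdk1 at -1.72 ± 0.39 (SE) and Mki67 at -0.36 ± 0.32. Relative to the control mean their median stood at 0.15 and -0.15 in control and at -0.68 and -1.57 in spermidine replicates 1 and 2. The medians of the synthesis genes were 0.19 and -0.19 in control and -0.19 and -0.86 in spermidine replicates 1 and 2, so both lists were lowest on spermidine replicate 2. The part of B cell RNA and of cell division in the differences described here was not tested.

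**Figure D2:**
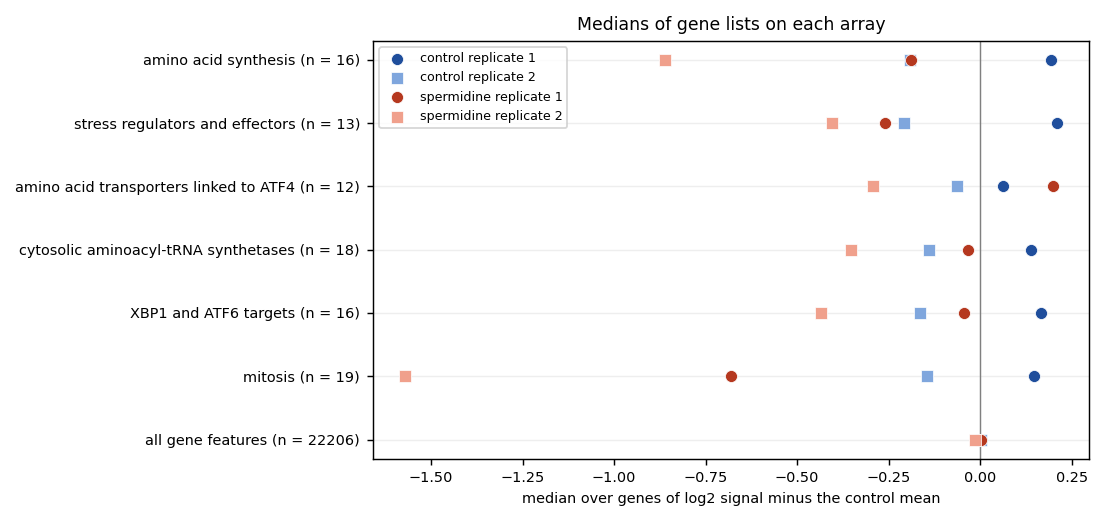
Median over the genes of each list of the log2 signal minus that gene's control mean (horizontal axis), for the 4 arrays, with the number of measured genes in brackets; each symbol is 1 array. Synthesis genes stand at -0.19 on spermidine replicate 1, level with control replicate 2, and at -0.86 on spermidine replicate 2, while the median of all 22206 features stays near 0.

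The serine pathway makes serine from a glycolytic intermediate in 3 steps. Psat1, the aminotransferase of the middle step, had log2 signals of 14.72 and 14.64 in control and 14.27 and 13.96 in spermidine arrays, a difference of -0.56 ± 0.23 (SE; limma adjusted p = 0.706). Both spermidine arrays lay below both control arrays, and the difference was larger than the gap between arrays of either group. Phgdh, the dehydrogenase of the first step, stood at 12.73 and 12.23 against 12.32 and 11.55, a difference of -0.54 ± 0.32. Its groups overlapped, since control replicate 2 was below spermidine replicate 1. Psph, the phosphatase of the last step, stood at 11.11 and 11.01 against 10.98 and 11.04, a difference of -0.05 ± 0.22 with a 95% interval from -0.56 to 0.46. The 3 steps thus had unequal values, with Psph near 0; the differences between them were not tested.

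Folate carries the carbon unit that serine releases, through parallel mitochondrial and cytosolic enzyme sets. In the mitochondrial set, Shmt2, which takes the unit from serine, stood at 13.61 and 13.49 in control and 12.997 and 12.80 in spermidine arrays. The difference was -0.65 ± 0.22 (SE; limma adjusted p = 0.644), a 1.57-fold lower signal, and exceeded the 0.20 that separated the spermidine arrays. Groups did not overlap for Shmt2, with 0.50 between the nearest arrays of different groups. Mthfd2, the dehydrogenase that oxidises the unit, stood at 13.93 and 13.26 against 13.40 and 12.59, a difference of -0.60 ± 0.34. Control replicate 2 lay below spermidine replicate 1 for Mthfd2, and the gap between the spermidine arrays (0.81) exceeded the group difference. Mthfd1l, which releases formate from the mitochondrion, stood at 12.75 and 12.43 against 12.42 and 12.10, a difference of -0.34 ± 0.25 that rests on a separation of 0.017. Aldh1l2, which oxidises formyl-folate, was below background on every array (5.08 and 5.02 against 4.76 and 4.14).

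The cytosolic set was represented by Shmt1 and Mthfd1. Shmt1, the counterpart of Shmt2, stood at 7.97 and 7.50 in control and 7.64 and 6.89 in spermidine arrays, a difference of -0.47 ± 0.31 with overlap. Mthfd1, the trifunctional cytosolic enzyme, stood at 8.92 and 8.38 against 8.73 and 8.70, a difference of 0.06 ± 0.26, and both spermidine arrays lay between the control arrays. The glycine transporter Slc6a9 stood at 9.13 and 8.76 against 8.58 and 8.90, a difference of -0.20 ± 0.25 with overlap. Of the 7 genes of this group, 6 had lower means, Aldh1l2 among them from signals below background.

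Among the other synthesis genes, the transsulfuration enzyme Cth and the asparagine synthetase Asns had the lowest differences of all 29 genes. Asns makes asparagine from aspartate and is a classical ATF4 target. Its signals were 14.78 and 14.37 in control and 13.85 and 13.12 in spermidine arrays, a difference of -1.09 ± 0.30 (SE; limma adjusted p = 0.637) or a 2.13-fold lower signal. The groups were 0.52 apart at their nearest arrays, and the difference exceeded the wider gap within a group (0.73). Cth, which cleaves cystathionine to cysteine, stood at 8.44 and 7.80 against 7.48 and 6.36. The difference was -1.20 ± 0.39 (adjusted p = 0.637), with no overlap and a gap of 1.12 between the spermidine arrays; spermidine replicate 2 was at the background level. Without that array the difference of Cth was -0.64 and that of Asns -0.72. Without spermidine replicate 1 they were -1.76 and -1.46.

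Aldh18a1, which makes the proline precursor pyrroline-carboxylate, stood at 12.71 and 12.08 in control and 12.00 and 11.42 in spermidine arrays, a difference of -0.68 ± 0.31 with no overlap. Pck2, the mitochondrial phosphoenolpyruvate carboxykinase, stood at 9.73 and 9.54 against 9.51 and 8.76, a difference of -0.50 ± 0.29 with a separation of 0.026. Gpt2, the mitochondrial alanine aminotransferase, stood at 8.85 and 7.58 against 8.07 and 6.75, a difference of -0.80 ± 0.51. Its signal varied more within each group than that of any other of the 29 genes, by 1.32 between the spermidine arrays, and the groups overlapped. Cbs, which forms the cystathionine that Cth cleaves, was below background on every array (4.74 and 5.14 against 5.52 and 5.16), so its higher mean is no measure of a fold.

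**Figure D3:**
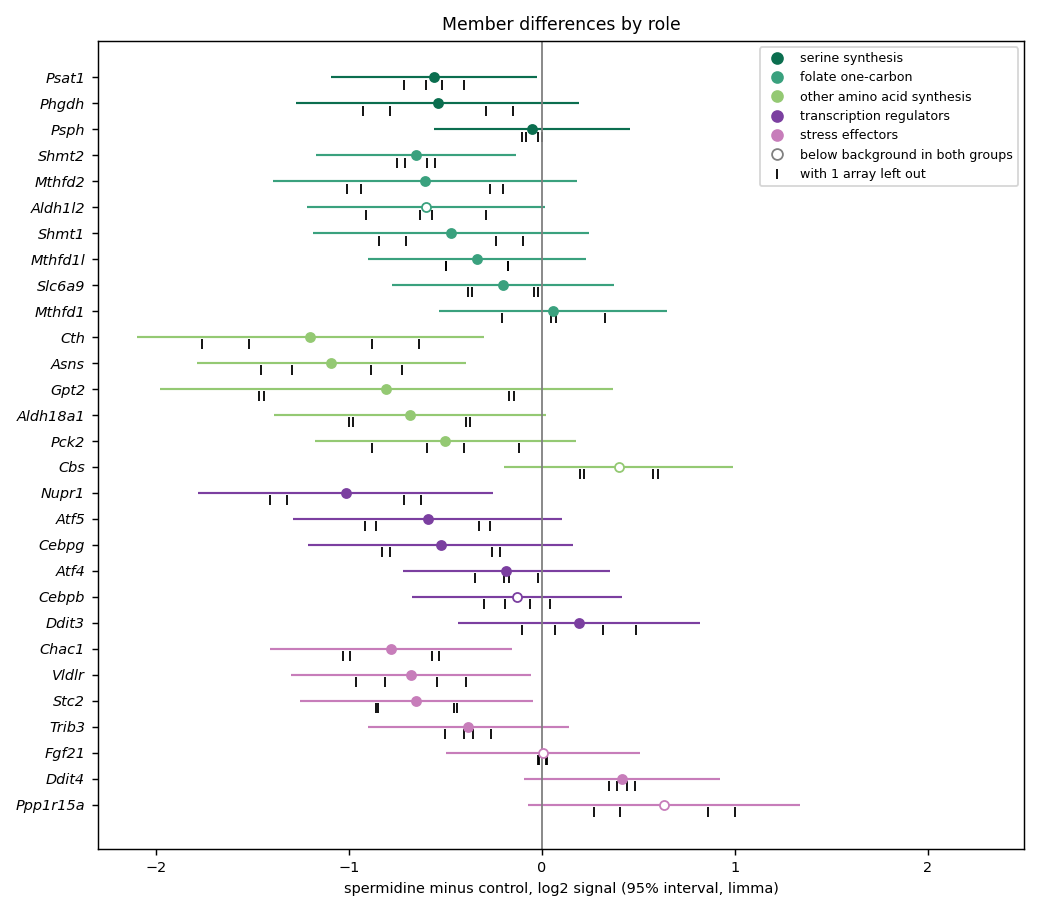
Spermidine minus control difference in log2 signal (horizontal axis) of each gene with its 95% interval from limma, coloured by role; open circles are genes below background in both groups, and the black ticks below each gene give the difference with 1 array left out. The intervals of 8 genes lie wholly below 0, among them Asns (-1.09), Cth (-1.20) and Nupr1 (-1.02), and the ticks of Gpt2 run from -1.46 to -0.14.

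The transcription regulators had differences between -1.02 and 0.19. Atf4 mRNA had log2 signals of 15.51 and 15.18 in control and 15.18 and 15.15 in spermidine arrays, a difference of -0.18 ± 0.23 (SE; 95% interval -0.72 to 0.35). Only control replicate 1 stood apart, and without it the difference was -0.022. Atf5, a related factor also under translational control, stood at 7.43 and 6.78 against 6.78 and 6.25, a difference of -0.59 ± 0.30 with control replicate 2 and spermidine replicate 1 at the same level to 2 decimals. Cebpg, which pairs with ATF4 on composite sites, stood at 11.13 and 10.52 against 10.56 and 10.04, a difference of -0.52 ± 0.30 with overlap. Cebpb, another factor of the C/EBP family, was below background on every array, at 5.75 and 6.09 against 5.86 and 5.73.

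Nupr1, a small stress-induced chromatin protein, had the lowest difference of the regulators. It stood at 11.10 and 10.49 in control and 10.17 and 9.39 in spermidine arrays, a difference of -1.02 ± 0.33 (SE; limma adjusted p = 0.637) and a 2.02-fold lower signal. The groups did not overlap, and the difference exceeded the gap of 0.79 between the spermidine arrays. Without spermidine replicate 2 the difference of Nupr1 was -0.62. Ddit3, which encodes the factor CHOP that links prolonged stress to cell death, stood at 10.80 and 11.40 against 11.42 and 11.17, a difference of 0.19 ± 0.27 with overlap. A second, dimmer Ddit3 feature, not placed on a chromosome by its identifier, stood at 7.97 and 8.18 against 8.54 and 9.07. Its difference was 0.73 ± 0.26 (adjusted p = 0.656) with no overlap, so the features of Ddit3 differ in size and in whether the groups overlap.

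The effectors were mixed in sign. Chac1, which degrades glutathione, stood at 7.25 and 6.83 in control and 6.01 and 6.51 in spermidine arrays, a difference of -0.78 ± 0.27 (SE; limma adjusted p = 0.647). The groups did not overlap. Spermidine replicate 1 and the spermidine mean (6.26) lay below background, so the size of the Chac1 difference does not measure a fold. Trib3, a pseudokinase that restrains ATF4 and AKT signalling, stood at 11.94 and 12.18 against 11.70 and 11.65, a difference of -0.38 ± 0.23 with no overlap. Stc2, a secreted glycoprotein, stood at 10.56 and 10.14 against 9.90 and 9.51, a difference of -0.65 ± 0.26 with no overlap. Vldlr, the very-low-density lipoprotein receptor, stood at 7.72 and 7.15 against 6.62 and 6.89, a difference of -0.68 ± 0.27 with no overlap. For all of Chac1, Trib3, Stc2 and Vldlr the difference was larger than the gap between arrays of either group.

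Ddit4 went the other way. It encodes an inhibitor of the growth kinase complex mTORC1, and hypoxia and glucocorticoids induce it as well as ATF4. Its signals were 12.75 and 12.89 in control and 13.21 and 13.26 in spermidine arrays, a difference of 0.42 ± 0.22 (SE; limma adjusted p = 0.749), or 1.33-fold higher. Arrays of a group differed by at most 0.13, and the groups were 0.32 apart. Ppp1r15a, the phosphatase subunit that reverses eIF2alpha phosphorylation, was far below background (3.56 and 3.11 against 3.60 and 4.33). The hormone gene Fgf21 was too, at 2.98 and 2.94 against 2.99 and 2.94.

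**Figure D4:**
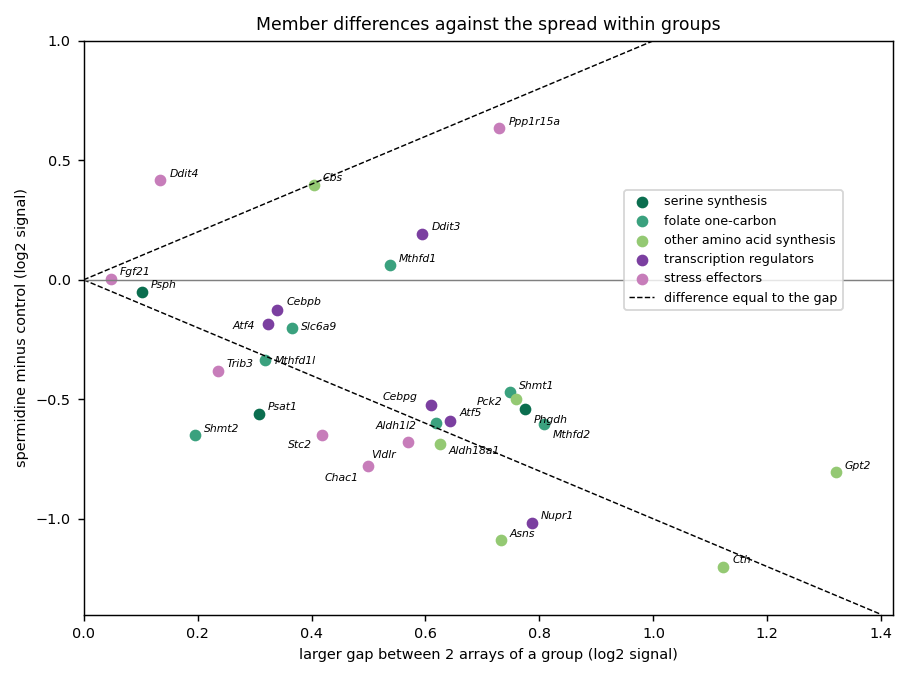
Difference between group means in log2 signal (vertical axis) against the larger of the 2 gaps between arrays of a group (horizontal axis) for the 29 genes, coloured by role; dashed lines mark a difference equal to the gap. Below the lower line lie 11 genes, among them Shmt2, Psat1, Asns, Nupr1 and Cth; Ddit4 lies above the upper line at a gap of 0.13.

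The spread between arrays of a group was itself shared by many of these genes. In 19 of the 29, replicate 1 was above replicate 2 in both groups, which was so for 30% of all features and for 44.3% of those above background; among the synthesis genes there were 13 of 16 and among the stress regulators and effectors 6 of 13. A lower mean by more than the larger gap within a group was found in 11 of the 29 genes. The same held for 11.9% of all features and for 1403 of the 9397 that reached background in a group. Leaving out 1 array therefore changed the summaries. The median of the synthesis genes, -0.55 with all arrays, was -0.28 without control replicate 1, -0.19 without spermidine replicate 2 and -0.86 without spermidine replicate 1. The median of the stress regulators and effectors, -0.38 with all arrays, ran from -0.40 to -0.26. The count of genes with all spermidine arrays below all control arrays became 23 without control replicate 2, where this held for 34.4% of all features. The count above became 5 without spermidine replicate 2, beside 33.7% of all features; with 3 arrays a full separation is more frequent by construction.

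The promoter match can be set beside these values as a description. The 7 measured genes with a match had a median difference of -0.68, with 6 lower, and the 20 with a window and no match a median of -0.40, with 15 lower. The 20 include Cbs, Cebpb and Ppp1r15a, which lay below background in both groups. Cth, which had no window, is in neither set. Over all measured genes with a window, the 620 with a match had a median of 0.003 and the 15071 without a match a median of -0.010. Fgf21 has the match and no signal above background, while Psat1 and Shmt2, which had no match in their windows, were among the genes with separated groups.

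Upstream of ATF4 stand the kinases of eIF2alpha. Eif2ak3 (PERK), the sensor of the endoplasmic reticulum, had log2 signals of 12.50 and 13.59 in control and 13.89 and 14.47 in spermidine arrays, a difference of 1.14 ± 0.38 (SE; limma adjusted p = 0.637). Eif2ak4 (GCN2), the sensor of uncharged tRNA, stood at 8.16 and 8.12 against 8.83 and 8.70, a difference of 0.63 ± 0.22 (adjusted p = 0.649). For both kinases the spermidine arrays lay above the control arrays, Eif2ak3 with a gap of 1.09 between the control arrays. Eif2ak1 (HRI), which responds to heme shortage, and Eif2ak2 (PKR), which responds to double-stranded RNA, had overlapping groups and differences of 0.11 ± 0.26 and -0.12 ± 0.24. With subunits of the exchange factor eIF2B and phosphatase genes, 11 of 12 listed genes were measured and 0 passed in either direction. Eif2b1 stood at -0.38, Ppp1cc at -0.33 and Eif2b2 at 0.64. Groups without overlap and higher with spermidine were found in 2 of the 11 (Eif2ak3 and Eif2ak4), beside 18.3% of all features. Separated groups that were lower with spermidine were found in 2 (Eif2b1 and Ppp1cc), beside 18.4% of all features. The separation of these kinases is thus no more frequent in the list than over the array.

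Lists of other genes linked to ATF4, and of aminoacyl-tRNA synthetases, had medians nearer to that of all features. Whether each of these genes is an ATF4 target was not tested. None of the lists that follow had a gene that passed the adjusted test, in either direction. In a list of 18 other genes linked to ATF4, 9 were lower and 9 higher (median 0.005). The tRNA exporter Xpot stood at -0.57, the translation repressor Eif4ebp1 at -0.42, the factor Atf3 at 0.60 and the autophagy receptor Sqstm1 at 1.09. Of 12 amino acid transporters, 7 were lower and 5 higher (median -0.10). The arginine and lysine transporter Slc7a3 (-1.72 ± 0.37) and the leucine transporter Slc7a5 (-0.83 ± 0.30) were lowest, and the taurine transporter Slc6a6 (0.48 ± 0.22) and Slc36a4 (0.14 ± 0.33) highest. Of 20 cytosolic aminoacyl-tRNA synthetases, 18 were measured, with 14 lower and a median of -0.21; their extremes were Tars at -0.48, Mars at -0.44, Qars at 0.23 and Farsa at 0.39.

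Further folate and methionine cycle genes, outside the 30, were split evenly. Of 21 listed, 17 were measured, 9 lower and 8 higher, with a median of -0.03. The thymidylate synthase Tyms stood at -0.78 ± 0.33 and the purine synthesis enzyme Atic at -0.31 ± 0.22. Highest were Mthfd2l, a paralog of Mthfd2, at 0.28 ± 0.23 and the folate enzyme Mthfs at 0.42 ± 0.23. Mthfd2l was kept through its spermidine mean alone (6.58), since its control mean (6.30) lay below background. Targets of XBP1 and ATF6, the other arms of the response to unfolded protein, had a median of -0.28 over 16 measured genes of 18, with 11 lower. Sec61b (-0.64) and Pdia6 (-0.59) were lowest, and the sensors Ern1 (0.39) and Atf6 (0.69) themselves highest.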

How the data were processed

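The authors deposited 1 log2 signal for each feature and array; the submitters' processing notes name RMA and Affymetrix Expression Console without versions. Because RMA subtracts a modelled background, equalises the array distributions and summarises probes, small signals can show compressed differences. That the base is 2 was inferred from the range of values, whose array maxima ran from 19.74 to 19.93. The printed folds rest on this inference. The table held 28846 features, of which 6640 control features stayed out of the gene tests. The platform annotation named 19572 of the 22206 gene features, and genes were matched by symbol. No build is named for the array annotation, and the printed coordinates are those of RefSeq promoter windows (GRCm38.p6).

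Groups came from the sample titles. Spermidine was compared with control over all gene features with limma 3.58.1 in R 4.3.3 (lmFit, eBayes, two-sided, 5.96 prior and 2 residual degrees of freedom), with Benjamini-Hochberg adjustment over all of them. The median standard error was 0.246. On simulated data for this comparison (20 simulations of 22206 features, 200 changed) the test recovered 5.7% of 2-fold and 88.2% of 4-fold changes. The 200 were split evenly over 2-, 4-, 8- and 16-fold changes and drawn from features above the median level. That setting differs from these data, in which 0 features were called, so the recovery here may be lower. The members and lists were chosen with earlier results of these data known. All measured members are named, with the eIF2alpha kinases and, of each other list, the 2 lowest and 2 highest genes that reached background in a group. Marker lists of other cell types are given as counts and sums. Alternatives were other priors, array weights, normalizations, filters, feature averaging, the replicate number as a block and leaving out each array.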

Additional observations from a re-analysis of the deposited data

How the results depend on the processing

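Under 14 alternatives, 0 of the 29 genes passed an adjusted p of 0.05 (limma); their adjusted p ran from 0.219 to 1, and 24 kept the sign of their difference in each alternative that could be fitted. Fgf21, below background, turned to -0.00011 after a further quantile normalization, -0.0094 after median centring and -0.0051 after cyclic loess. With 1 array left out, where a lone array is assumed to vary like the others, differences ran from -0.019 to 0.029 for Fgf21, from -0.10 to 0.0001 for Psph, from -0.21 to 0.33 for Mthfd1, from -0.10 to 0.49 for Ddit3 and from -0.30 to 0.043 for Cebpb. In these refits the synthesis median ran from -0.86 to -0.19 and the stress median from -0.40 to -0.26. The count of genes with spermidine arrays below control arrays ran from 16 to 23, the latter beside 34.4% of all features. Above, it ran from 3 to 5, the latter beside 33.7% of all features. After median centring the count below was 11. For that setting and the other refits the share over all features was not computed, so their counts cannot be set against it. With either filter on dim features, which fits 25 or 24 of the genes, the count above was 1, since Cbs and Ppp1r15a are left out. Over all features the count called, 0 in the main test, was 1 (Hmox1) with an intensity trend, median centring, cyclic loess, either filter and the replicate block, and 0 without any 1 array. Same-numbered arrays had a correlation of deviations from their group means of 0.21, which with 2 pairs does not establish a pairing. With the replicate block, 15 of the 29 genes had an unadjusted p under 0.05 in place of 8, while the share of all features rose from 7.02% to 10.6%, and the lowest adjusted p was 0.219. Signal near background limits Chac1, Cth, Atf5 and Vldlr, and 2 arrays a group limit every value.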
